A study of Homo sapiens with 30 samples.

Results

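Cells of the A375 melanoma line that crossed a narrow-pored membrane in 10 rounds were compared with cells that failed to cross in 10 rounds, both sorted for surface integrin β4 (ITGB4). A375 is an established human melanoma line. The comparison holds 6 of the 30 polyadenylated RNA libraries of the series, chosen by their titles: 3 Bottom10 positive libraries (crossed) and 3 Top10 positive libraries (uncrossed). All cells were seeded in transwells with 5 µm pores over a coat of 10 µg/ml fibronectin and given 24 hours a round, the cells of either side were expanded and carried into the next round, and the sort followed the last round. The sort kept cells stained by an anti-ITGB4 antibody above a gate set on unstained cells. Either of 2 instruments was used for sorting, and the labels do not link them to libraries. Further groups of 3 are used only for comparison: Bottom10 negative and Top10 negative cells (the same 10 rounds, the negative sort), positive cells sorted from the original line and then taken across for 5 rounds, Top5 positive cells (uncrossed in 5 rounds, then sorted), and Parental positive cells (sorted, with no migration named). The series title asks which differences exist before constricted migration and which come with it; this contrast sets the populations apart after 10 rounds and does not separate these 2 sources. The labels number the libraries as biological replicates of 1 cell line and do not say whether they were grown apart, so the p-values describe how these libraries vary, which may be technical.

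Cells that pass a pore narrower than their nucleus have to deform it, and they rely on adhesion receptors, the actin cortex and matrix contacts to do so. Integrin β4 pairs with integrin α-6, binds laminin of the basement membrane and links it to keratin through hemidesmosomes, structures typical of epithelia and not of pigment cells. Melanoma cells are known to take up states that range from a pigmented state driven by the lineage factor MITF to a dedifferentiated state with inflammatory, AP-1 and YAP target genes.

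Counts assigned to genes ran from 16115316 to 23122106 in the 6 libraries, and 17310 to 18135 genes had at least 1 count in each. Of the melanocytic markers, SOX10 (445 to 974 CPM in Bottom10 positive and 785 to 1230 CPM in Top10 positive libraries) and CSPG4 were abundant, whereas MLANA, TYR and TYRP1 were below 1 CPM in all 6 libraries and TYR was at 0, so the lineage factor was present and these pigment genes were not. CPM, the usual depth-scaled unit of count data, is computed here from gene counts with scaling between libraries. Bottom10 positive replicate 3 stood apart from the other 5 on the second principal component of all libraries, with 5 libraries of other groups. Without these 6 libraries the contrast described below had 129 calls in place of 145, with 82 shared. Same-numbered Bottom10 positive and Top10 positive libraries deviated from their group means together, with correlations of 0.265, 0.573 and 0.547 for replicates 1, 2 and 3, so a fit with the replicate number as a block is given beside the plain fit for the gene lists and for the single genes so marked.

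Between crossed and uncrossed positive cells, edgeR's quasi-likelihood test at a Benjamini-Hochberg adjusted p under 0.05 called 145 of 15381 genes, 0.943%. Of these, 97 were higher in Bottom10 positive cells (0.631%) and 48 lower (0.312%). The change was at least 2-fold in 132 of them, with a median log2 fold change of 2.21 among the higher and -1.85 among the lower genes. All 145 had no overlap between the 3 and 3 libraries, as had 15.2% of all tested genes (7.61% higher and 7.58% lower). With the replicate block in the 4 ten-round groups the count was 1130 of 14587 genes, 7.75% (573 higher, 3.93%, and 557 lower, 3.82%), among them all 142 of the first set that this fit tested. That larger count fell most without replicate 2, when the block fit called 92 genes. It called 643 without replicate 1 and 840 without replicate 3. The cause of this drop was not tested. Single block calls below are not all marked for such losses. An unmarked call may be lost without replicate 2, and also without replicate 1 or 3. Some, such as KRT14, PLAT and RELB, were lost in each of these 3 fits. Leaving out 1 of the 6 libraries from the plain fit left 53 to 113 calls, and 43 of the 145 genes kept theirs in each of the 6 fits. In bulk RNA fewer cells of a kind and less RNA per cell cannot be told apart. Genes named below are called in the plain fit unless the block is named, and log2 fold changes are Bottom10 minus Top10 with the SE of the fit.

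**Figure D1:**
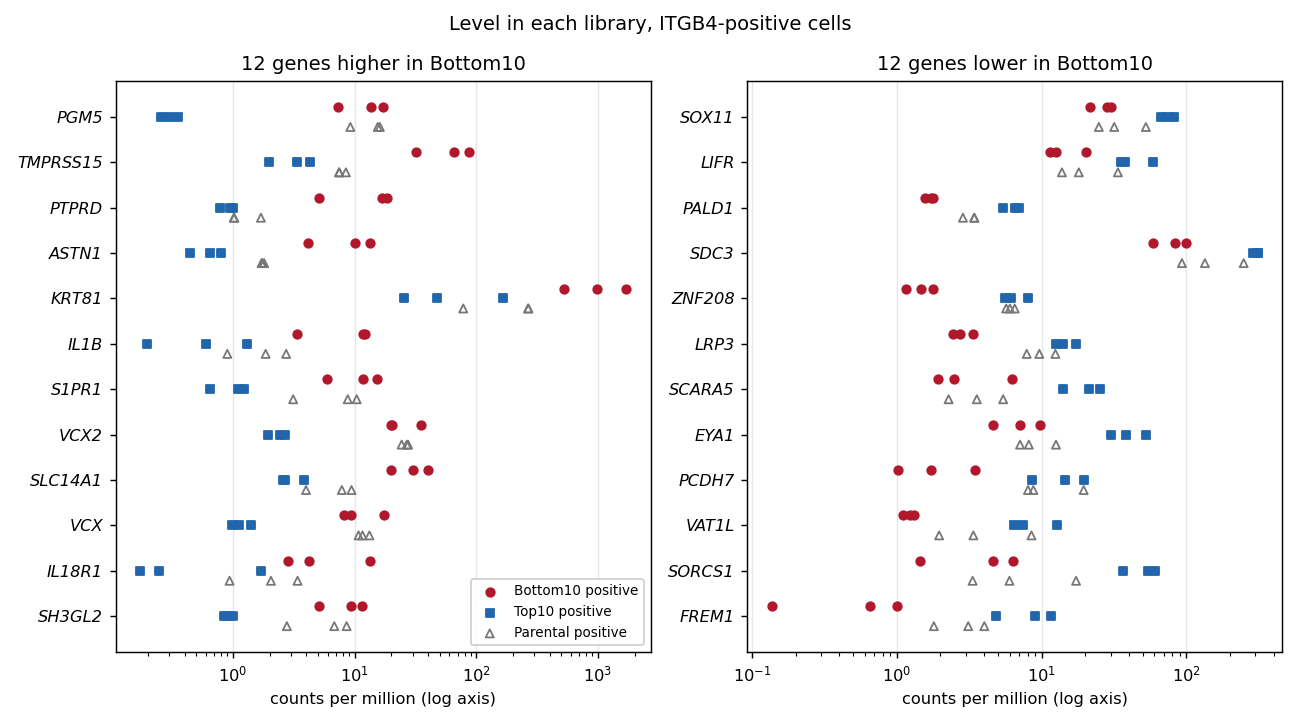
Level in CPM, on a log axis, of the 12 called genes with the highest and the 12 with the lowest log2 fold change among those averaging at least 5 CPM in either group, for the 3 libraries each of Bottom10 positive (circles), Top10 positive (squares) and Parental positive cells (triangles). In each of the 24 genes the circles and squares do not overlap, which the choice of genes required, while the parental triangles lie near the circles for some genes (PGM5, VCX2), near the squares for others (PTPRD, ZNF208) and between or across them for the rest.

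The transcript of the sorted antigen itself was higher in crossed cells only when libraries were paired. ITGB4 was at 101, 255 and 34.3 CPM in Bottom10 positive replicates 1, 2 and 3, against 20.4, 56.5 and 9.84 CPM in the Top10 positive libraries. Each crossed library exceeded its same-numbered partner, but the groups overlapped, since replicate 3 was lowest and replicate 2 highest on both sides. The log2 fold change was 2.17 ± 0.88 (edgeR adjusted p = 0.378), and 2.12 ± 0.21 with the block (edgeR adjusted p = 0.00037; 0.0571 without replicate 2). Parental positive cells held 168, 96.7 and 35.2 CPM, and replicate 3 was lowest there too. Of the other hemidesmosome and laminin-332 genes, 10 tested in all with ITGB4, none passed in the plain fit. With the block the laminin β3 chain LAMB3 rose (log2 fold change 0.62) and the anchoring filament protein LAD1 fell, at 3.13, 4.30 and 4.79 CPM in Bottom10 positive and 13.2, 15.1 and 8.07 CPM in Top10 positive libraries (-1.55, edgeR adjusted p = 0.00664), so the 3 called members did not move one way.

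Among 20 integrin subunits the plain fit called 0, and the block called ITGB4 and ITGB2 higher and ITGA9 and ITGB3 lower. ITGA9, a receptor subunit for tenascin and other matrix ligands, was at 5.98, 4.04 and 0.479 CPM in Bottom10 positive cells, against 39.8, 29.3 and 16.9 CPM in Top10 positive cells, and changed by -3.10 ± 0.46 on the log2 scale with the block (edgeR adjusted p = 0.00339). ITGB3, which forms the vitronectin receptor, had 298, 205 and 61.6 CPM in Bottom10 positive libraries and 645, 487 and 347 CPM in Top10 positive libraries (block log2 fold change -1.51, edgeR adjusted p = 0.0294). Every crossed library lay below every uncrossed library for both, and none of the 4 subunits kept an adjusted p under 0.05 without replicate 2. The median of all 20 subunits was a log2 fold change of -0.07, against 0.03 over all tested genes.

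**Figure D2:**
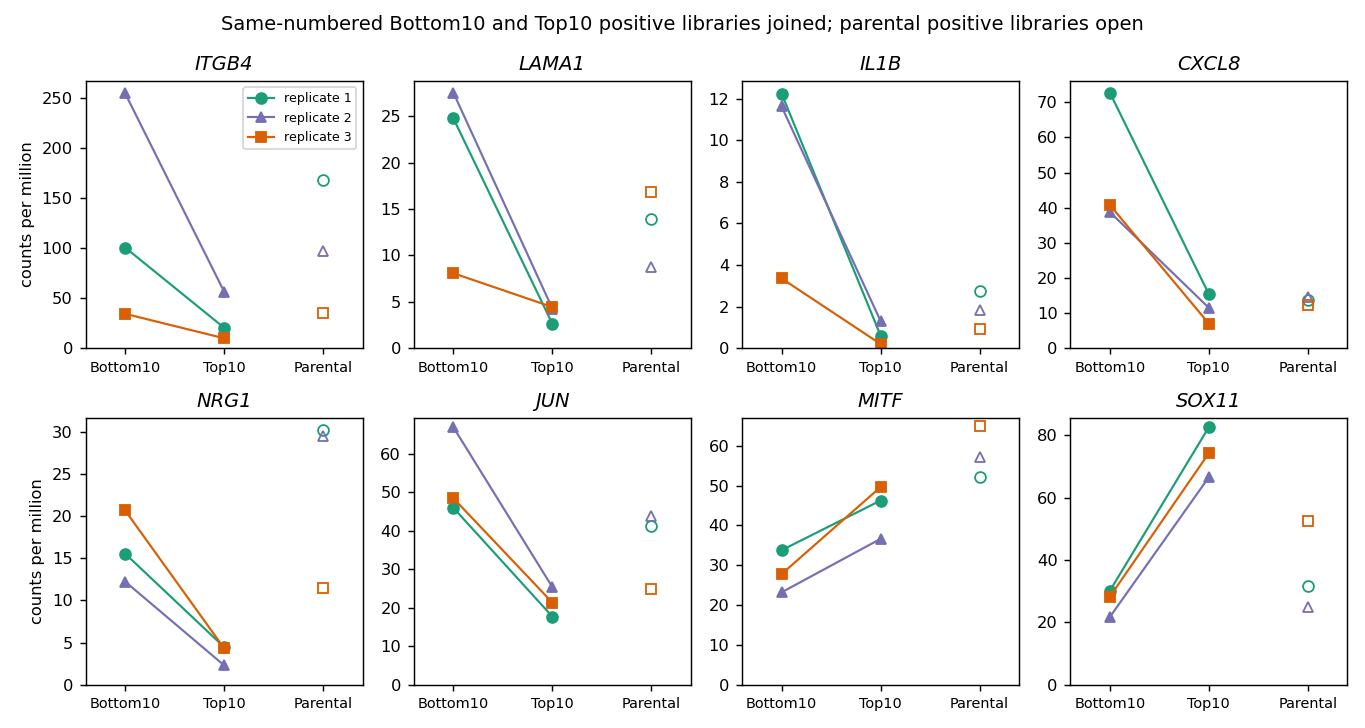
Level in CPM of 8 genes in Bottom10 and Top10 positive libraries, joined by replicate number, with Parental positive libraries as open symbols. All lines fall to the right for ITGB4, LAMA1, IL1B, CXCL8, NRG1 and JUN and climb to the right for MITF and SOX11. Replicate 2 is highest and replicate 3 lowest in both migrated groups for ITGB4.

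Basement membrane genes moved both ways. LAMA1, the α-1 chain of laminin, was at 24.8, 27.5 and 8.07 CPM in Bottom10 positive libraries, against 2.62, 4.26 and 4.43 CPM in Top10 positive libraries, with a log2 fold change of 2.42 ± 0.49 (edgeR's adjusted p = 0.0116). PXDN, the peroxidase that crosslinks collagen IV, had 20.1, 16.7 and 9.30 CPM in Bottom10 positive and 5.07, 2.96 and 3.49 CPM in Top10 positive cells (2.00 ± 0.37, edgeR adjusted p = 0.00584). For both genes the lowest crossed library, replicate 3, still lay above the highest uncrossed one. FREM1, a basement membrane protein that anchors epidermis to dermis, went the other way with 1.01, 0.657 and 0.137 CPM in Bottom10 positive cells and 4.86, 11.6 and 8.95 CPM in Top10 positive cells (-3.77 ± 0.70, edgeR adjusted p = 0.00584), at under 2 CPM in every crossed library. Of 30 basement membrane genes these 3 were called, 2 higher and 1 lower, with a list median of -0.10. The block added the netrin NTN4, the tubulointerstitial antigen relative TINAGL1, AGRN and FRAS1 among the higher and the collagen IV chains COL4A1 and COL4A5 among the lower, 6 and 3 of 29 in all. COL4A1 was at 199.97, 174 and 119 CPM in Bottom10 positive libraries and 324, 272 and 301 CPM in Top10 positive libraries, with no overlap (block log2 fold change -0.87, edgeR adjusted p = 0.0283).

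In the interstitial matrix 1 of 32 genes rose and 0 fell in the plain fit, and 3 rose and 3 fell with the block. COL13A1, a membrane-spanning collagen of cell-matrix junctions, had 22.6, 32.2 and 33.8 CPM in Bottom10 positive cells, against 5.97, 5.91 and 6.34 CPM in Top10 positive cells (2.28 ± 0.40, edgeR adjusted p = 0.00407). The uncrossed libraries were within 1 CPM of each other. The block added BGN (0.82) and POSTN (1.46), matrix proteins of connective tissue, as higher, and COL14A1 (-1.83), THBS2 (-0.82) and EMILIN1 (-0.61) as lower. Among 30 matrix proteases and inhibitors ADAMTS9, a proteoglycan-cleaving protease, fell, with 0.894, 1.42 and 0.547 CPM in Bottom10 positive and 5.20, 4.01 and 3.05 CPM in Top10 positive libraries (-2.08 ± 0.50, edgeR adjusted p = 0.0425), the 1 call of this list in the plain fit. With the block 2 of 26 rose, the peptidase MME (2.16) and ADAMTS6 (1.03), and 4 fell, ADAMTS9 with MMP8 (-1.59), MMP15 (-0.77) and the plasminogen activator PLAT (-0.58). SDC3, a heparan sulfate proteoglycan of the cell surface, fell as well, to 82.9, 99.5 and 58.7 CPM in Bottom10 positive cells, against 290.2, 310.4 and 313 CPM in Top10 positive cells (-1.92 ± 0.41, edgeR adjusted p = 0.0208). Each crossed library of SDC3 lay far below each uncrossed one.

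The gene with the highest fold among the named genes belongs to adherens-type junctions. PGM5 (aciculin), a phosphoglucomutase relative without known enzyme activity that sits at cell-matrix and cell-cell junctions, was at 13.6, 17.1 and 7.32 CPM in Bottom10 positive libraries, against 0.258, 0.351 and 0.295 CPM in Top10 positive libraries. The uncrossed libraries were all below 1 CPM, and the log2 fold change was 5.37 ± 0.61 (edgeR adjusted p = 3.04e-05). Parental positive cells held 16.1, 15.5 and 9.21 CPM, within the range of the crossed cells, while Top10 positive minus Parental positive cells gave -5.47 on the log2 scale (edgeR adjusted p = 1.7e-05). PGM5 and the focal adhesion adaptor LIMS2 (1.01, 1.77 and 1.16 CPM in Bottom10 positive and 0.344, 0.301 and 0.393 CPM in Top10 positive cells) were the 2 called members of 50 actomyosin and focal adhesion genes, whose median was 0.29. The block called 10 of 48 higher and 0 lower, among them the actin-binding tropomyosin TPM1 (0.95), the caveolins CAV1 (1.23) and CAV2 (1.06), the vinexin-family adaptors SORBS3 (0.84) and SORBS2 (1.26), CNN2 and ZYX (log2 fold changes with the block). CAV1 was at 249.8, 197 and 414 CPM in Bottom10 positive and 97.2, 80.0 and 201 CPM in Top10 positive libraries, where the groups overlapped because replicate 3 was high on both sides, and of the 10 only PGM5 passed in each block fit that left out 1 replicate number.

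Desmosome and keratin genes that passed the test were all higher in crossed cells. KRT81, a hair keratin, was at 522, 1707 and 978 CPM in Bottom10 positive libraries, against 25.4, 164 and 47 CPM in Top10 positive libraries, with replicate 2 the highest of both groups and no overlap (3.76 ± 0.68, edgeR adjusted p = 0.00486; 0.0512 without Top10 positive replicate 3). Its neighbour KRT86 overlaps it in the RefSeq annotation and is close in sequence, so reads may be split between them; KRT86 had 7.32, 30.8 and 18.4 CPM in Bottom10 positive cells and 1.68, 9.37 and 3.34 CPM in Top10 positive cells (block log2 fold change 2.08). PKP2, a plaque protein of desmosomes, had 18.3, 19.4 and 17 CPM in Bottom10 positive cells, against 5.67, 4.86 and 6.54 CPM in Top10 positive cells (1.68 ± 0.35, edgeR adjusted p = 0.0156). Of 20 tested desmosome and keratin genes 2 were called higher and 0 lower, 19 had a log2 fold change above 0, and the median was 0.52. With the block 6 of 19 rose, adding KRT80, KRT7 and KRT14. Of 13 keratinocyte markers KRT5, KRT1, KRT17, DSG3, TP63 and LGALS7 were below 1 CPM in all 6 libraries. The 7 markers that were tested all had a log2 fold change above 0, with a median of 0.48, and 2 rose with the block, KRT14 and SFN. KRT14 was at 11.6, 2.78 and 40 CPM in Bottom10 positive and 4.3, 0.952 and 14.3 CPM in Top10 positive libraries, with overlap. Its block call (edgeR adjusted p = 0.035) was lost without replicate 1, 2 or 3 (0.145, 0.0665 and 0.0826). SFN (stratifin) was at 1.90, 2.93 and 14.1 CPM in Bottom10 positive and 0.902, 0.401 and 1.08 CPM in Top10 positive libraries (block log2 fold change 2.61, edgeR adjusted p = 0.0203; 0.189 without replicate 2), with replicate 3 far above the rest. The part of these markers in the junction gene results was not tested. The 13 markers summed to 176 to 334 CPM in Bottom10 positive and 159 to 178 CPM in Top10 positive libraries.

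Inflammatory genes had the highest median of all 47 lists. NF-kB is a transcription factor family that induces cytokines and its own regulators. IL1B, the cytokine interleukin 1β, was at 12.2, 11.6 and 3.35 CPM in Bottom10 positive libraries, against 0.602, 1.30 and 0.197 CPM in Top10 positive libraries (3.69 ± 0.75, edgeR adjusted p = 0.0129). CCL2, a monocyte-attracting chemokine, had 3.52, 2.48 and 4.38 CPM in Bottom10 positive cells and 0.215, 0.0501 and 0.541 CPM in Top10 positive cells (3.66 ± 0.78, edgeR adjusted p = 0.0185). Both were low in absolute terms, and neither group overlapped the other. Of 24 tested members 20 were higher in crossed cells, with a median log2 fold change of 0.89, yet only these 2 passed the plain fit. Each lost the call in 3 of the 6 fits that left out 1 library (edgeR adjusted p up to 0.116 for IL1B and 0.142 for CCL2).

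With the block 13 of 22 NF-kB and inflammatory genes rose and 0 fell, beside 3.93 and 3.82% of all genes. CXCL8, the neutrophil chemokine interleukin 8, was at 72.8, 38.8 and 40.8 CPM in Bottom10 positive and 15.4, 11.5 and 6.98 CPM in Top10 positive libraries (block log2 fold change 2.21 ± 0.20, edgeR adjusted p = 0.00022). CXCL1, a chemokine of the same receptor, had 40.2, 28.6 and 93 CPM in Bottom10 positive cells, against 10.3, 7.92 and 19.1 CPM in Top10 positive cells (2.05 ± 0.23, edgeR adjusted p = 0.000659). For both, every crossed library lay above every uncrossed one. The cytokine LIF had 72.5, 114 and 78.2 CPM in Bottom10 positive and 39.9, 42.9 and 41.1 CPM in Top10 positive libraries (1.07), and the apoptosis inhibitor BIRC3 had 12.7, 14.4 and 3.42 CPM in Bottom10 positive and 5.59, 3.76 and 1.82 CPM in Top10 positive libraries (1.37). The BIRC3 groups overlapped through replicate 3. The remaining calls were the pathway members NFKB2 (0.54), RELB (0.64), NFKBIA (0.61) and IRAK2 (0.73) and the cytokines IL1A (0.90), IL24 (0.98) and IL11 (0.90). Of the 13, only IL1B, CCL2, CXCL8 and CXCL1 kept the call in all 3 block fits that left out a replicate number. Median log2 ratios of the whole list were 0.60, 0.86 and 0.88 in the replicate 1, 2 and 3 pairs, where those of all genes were 0.00, 0.01 and 0.04. Blood cells, which also express such genes, were represented by 12 markers, of which 10 were below 1 CPM in all 6 libraries and CD3E, CD2, MS4A1 and TYROBP were among those at 0. The sum of the 12 was 54.5 to 159 CPM in Bottom10 positive and 35.7 to 88.8 CPM in Top10 positive libraries, most of it CD68, which rose with the block (log2 fold change 0.81).

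The promoters of 4 of these genes are shown as examples. Matches to 2 motifs are in capitals: the AP-1 element TGANTCA and the NF-kB consensus GGGRNNYYCC (R is A or G, Y is C or T, N is any base). Both were searched on both strands in the 250 bases before the RefSeq start (GRCh38.p14).
CXCL8 (chr4:73740319-73740568, plus strand): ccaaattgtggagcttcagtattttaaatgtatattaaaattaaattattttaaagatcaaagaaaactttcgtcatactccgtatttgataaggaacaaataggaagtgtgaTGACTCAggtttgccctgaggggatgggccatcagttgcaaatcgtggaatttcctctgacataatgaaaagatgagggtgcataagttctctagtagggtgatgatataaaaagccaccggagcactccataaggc
CXCL1 (chr4:73869143-73869392, plus strand): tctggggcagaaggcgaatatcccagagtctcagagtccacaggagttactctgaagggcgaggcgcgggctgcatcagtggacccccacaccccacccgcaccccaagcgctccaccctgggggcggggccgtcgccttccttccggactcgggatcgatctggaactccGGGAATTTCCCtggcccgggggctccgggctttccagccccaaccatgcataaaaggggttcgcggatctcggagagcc
BIRC3 (chr11:102317234-102317483, plus strand): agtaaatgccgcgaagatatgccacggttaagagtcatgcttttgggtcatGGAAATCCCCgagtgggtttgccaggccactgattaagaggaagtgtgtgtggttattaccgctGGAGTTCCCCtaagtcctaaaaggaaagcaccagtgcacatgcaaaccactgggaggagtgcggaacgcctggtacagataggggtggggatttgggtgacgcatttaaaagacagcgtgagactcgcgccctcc
IL1B (chr2:112836780-112837029, minus strand): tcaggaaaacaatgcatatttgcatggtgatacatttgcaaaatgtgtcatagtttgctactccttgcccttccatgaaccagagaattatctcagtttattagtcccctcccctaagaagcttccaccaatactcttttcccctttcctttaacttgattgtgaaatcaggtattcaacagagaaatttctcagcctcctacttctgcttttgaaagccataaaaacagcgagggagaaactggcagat

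In these windows CXCL8 held 1 AP-1 match, CXCL1 2 overlapping NF-kB matches, and BIRC3 2 NF-kB matches, while IL1B held neither. Of the other genes of the list called with the block, IL11 and IL1A held 1 AP-1 match each and NFKBIA 1 NF-kB match. IL24, IRAK2 and NFKB2 held neither, and CCL2, LIF and RELB had no promoter sequence to search. The NF-kB consensus occurred in 15.9% of 69 promoters of called higher genes and 5.88% of 34 promoters of called lower genes, where 11.8% of 11981 tested genes with a promoter held it. For AP-1 the shares were 4.35% of the higher, 5.88% of the lower and 4.08% of the tested genes. For the TEAD motif GGAATG they were 11.6, 8.82 and 9.53% of the same sets. A match says only that these letters are present. Sites that depart from these patterns were not searched, so a window without a match may still hold a site.

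Genes of the dedifferentiated melanoma state and targets of YAP and TEAD, a pair of factors that respond to tension and spreading, were mostly higher in crossed cells. TNFRSF12A, the receptor for the cytokine TWEAK, was at 205, 265 and 364 CPM in Bottom10 positive libraries, against 116, 142 and 154 CPM in Top10 positive libraries (1.02 ± 0.24, edgeR adjusted p = 0.0389), the 1 call among 32 dedifferentiated genes. That list had a median of 0.86, with 26 genes above 0. The block called 13 higher and 1 lower of 32. Largest among the higher was NRG1, a ligand of ERBB receptors, with 15.5, 12.2 and 20.7 CPM in Bottom10 positive and 4.47, 2.31 and 4.33 CPM in Top10 positive cells (block log2 fold change 2.12 ± 0.19, edgeR adjusted p = 0.000237). AMIGO2, an adhesion molecule, had 97.7, 125 and 217 CPM in Bottom10 positive and 31.9, 36.8 and 63.6 CPM in Top10 positive libraries (1.72 ± 0.13, edgeR adjusted p = 9.72e-05). The receptor kinase AXL, often used to mark this state, had 687, 1252 and 508 CPM in Bottom10 positive libraries, against 297, 518 and 342 CPM in Top10 positive libraries (1.04, edgeR adjusted p = 0.00455). Its groups overlapped, because crossed replicate 3 lay below uncrossed replicate 2. The single lower member was UCN2, a stress peptide of the corticotropin-releasing family (-1.53). NRG1, AMIGO2, JUN and UCN2 kept the call without any 1 replicate number, and AXL did not without replicate 1 or 2.

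Of 25 YAP and TEAD targets, DLC1, a GTPase-activating protein, and GADD45B, a stress-response gene, were called higher and 0 lower, with a list median of 0.68. DLC1 was at 117, 135 and 73.5 CPM in Bottom10 positive and 30.7, 40.8 and 44.6 CPM in Top10 positive cells (1.49 ± 0.36, edgeR adjusted p = 0.0409). GADD45B had 18.3, 25.8 and 33.4 CPM in Bottom10 positive cells, against 9.45, 10.8 and 11.6 CPM in Top10 positive cells (1.28 ± 0.29, edgeR adjusted p = 0.0287). With the block 8 rose and 1 fell, and the secreted targets CYR61 (202, 214 and 249.8 CPM in Bottom10 positive and 52.1, 57.4 and 101 CPM in Top10 positive libraries) and CTGF (83.1, 66 and 117 CPM in Bottom10 positive and 24.9, 27.6 and 57.9 CPM in Top10 positive libraries) did not overlap between groups. The smallest difference was in replicate 3, and none of the 9 calls held in all 3 block fits that left out a replicate number. AP-1 genes had 0 calls in the plain fit and a median of 0.58 over 15. JUN, an AP-1 subunit, was at 46, 66.9 and 48.4 CPM in Bottom10 positive cells, against 17.7, 25.4 and 21.3 CPM in Top10 positive cells (block log2 fold change 1.32 ± 0.12, edgeR adjusted p = 0.000187). MAFF, FOSL1 and JUND also rose with the block. MAF, a factor of the same superfamily, fell, with 18, 11.2 and 13.8 CPM in Bottom10 positive and 71.1, 45.2 and 42.6 CPM in Top10 positive libraries (-1.88).

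Melanocyte lineage genes that passed with the block were all lower in crossed cells. MITF, the lineage factor of pigment cells, was at 33.8, 23.2 and 27.8 CPM in Bottom10 positive libraries, against 46.2, 36.6 and 49.6 CPM in Top10 positive libraries, without overlap (block log2 fold change -0.65 ± 0.14, edgeR adjusted p = 0.0176; 0.204 without replicate 2). EDNRB, the endothelin receptor of melanoblasts, had 24.4, 22.6 and 10.9 CPM in Bottom10 positive cells and 72, 74.8 and 35.7 CPM in Top10 positive cells (-1.66 ± 0.10, edgeR adjusted p = 4.16e-05). Of 18 tested melanocyte lineage genes 0 were called in the plain fit. The block called 0 higher and 4 lower of 17, the others being S100B (-0.85) and OCA2 (-2.13), with a plain median of -0.20. The 12 melanocytic markers summed to 962 to 2540 CPM in Bottom10 positive and 1900 to 4030 CPM in Top10 positive libraries, a sum made mostly of CSPG4 and SOX10.

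SOX factors fell where they changed. SOX11, a factor of neural development, was at 30.1, 21.7 and 28.3 CPM in Bottom10 positive cells, against 82.6, 66.6 and 74.3 CPM in Top10 positive cells (-1.48 ± 0.29, edgeR adjusted p = 0.00911). Parental positive libraries held 31.7, 24.8 and 52.5 CPM. With the block 5 of 12 SOX genes fell and 0 rose, SOX4 (-1.04), SOX2 (-0.77), SOX5 (-1.63) and SOX8 (-4.44) besides SOX11. SOX8 was at 0, 0.202 and 0 CPM in Bottom10 positive and 1.46, 2.51 and 0.738 CPM in Top10 positive libraries, so its fold rests on a few counts. TFAP2B, a neural crest factor, had 37.5, 25.9 and 10.7 CPM in Bottom10 positive cells, against 409, 331.8 and 148 CPM in Top10 positive cells (block log2 fold change -3.62 ± 0.19, edgeR adjusted p = 1.29e-05). Every crossed library of TFAP2B lay far below every uncrossed one. Neural crest genes as a list were mixed, with 3 higher and 5 lower of 17 in the block fit and 0 called in the plain one. EYA1, a coactivator with phosphatase activity in organ development, was at 9.67, 4.60 and 7.05 CPM in Bottom10 positive and 52.9, 30.3 and 38.2 CPM in Top10 positive libraries (-2.51 ± 0.31, edgeR adjusted p = 5.62e-05). It kept the call in all 6 fits that left out 1 library and was the 1 called gene of 8 in a list of its family and partner factors. Among mesenchymal transition factors TWIST2 rose (block 1.42) and PRRX1 fell (block -1.96). PRRX1 was at 41.9, 27 and 14.4 CPM in Bottom10 positive and 131, 103 and 78.6 CPM in Top10 positive cells. The block called 2 higher and 3 lower of 11 such factors, with FOXC2 the other higher and SNAI1 and SNAI2 the other lower members.

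**Figure D3:**
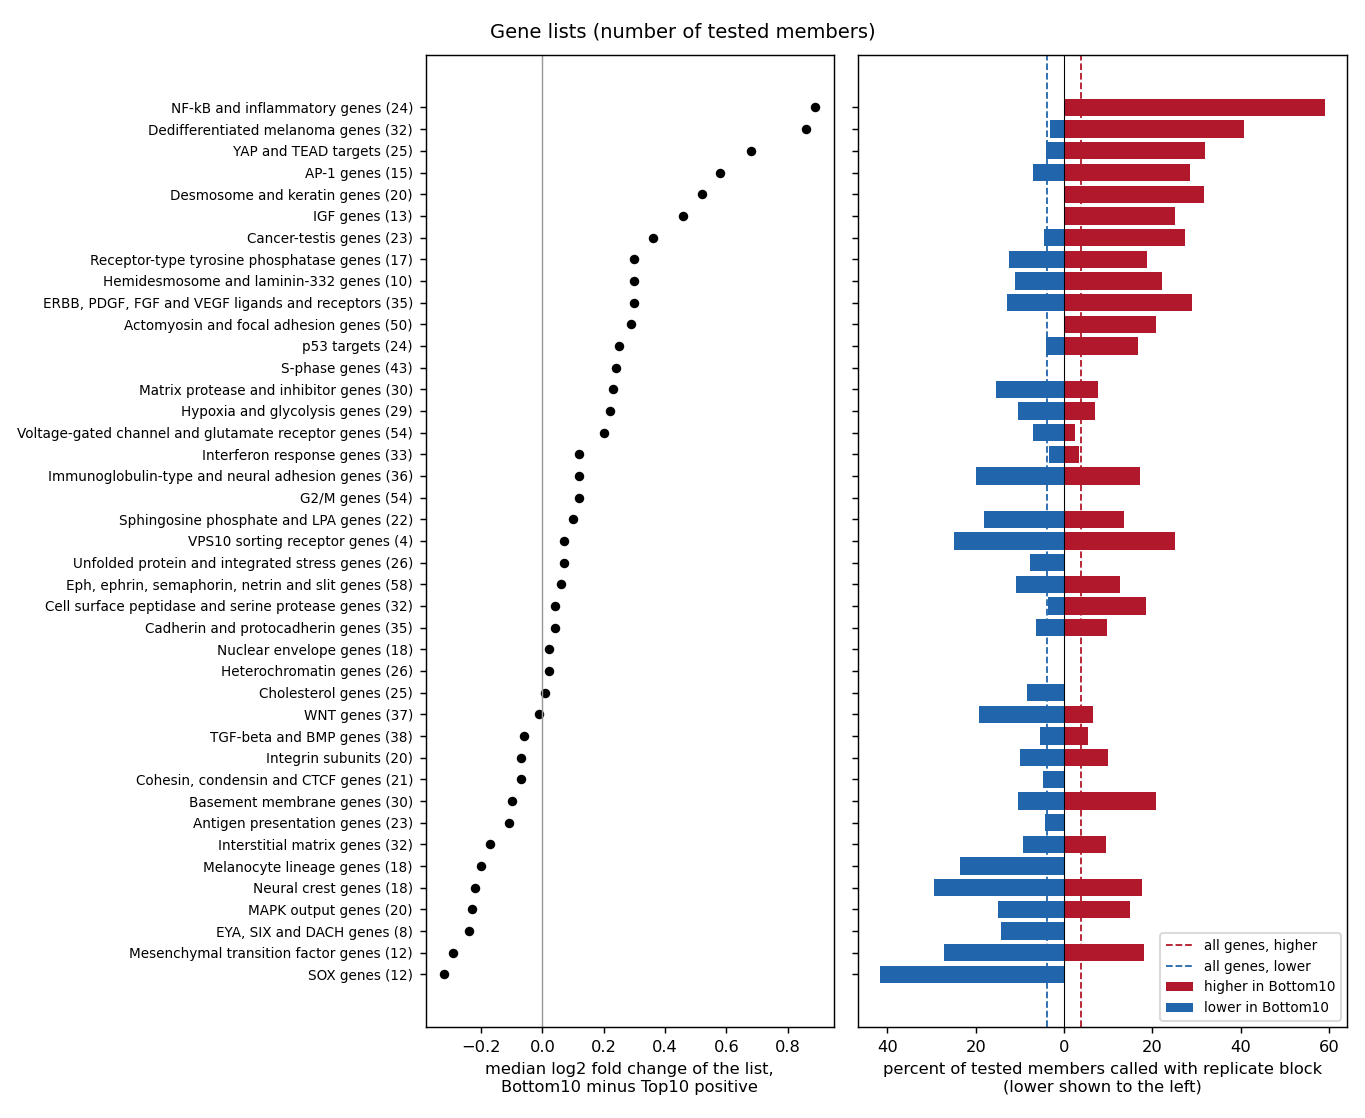
Left, median log2 fold change (Bottom10 minus Top10 positive, plain fit) of each gene list other than the cell type marker lists, with the number of tested members in brackets. Right, percent of members called with the replicate block, higher to the right and lower to the left, with dashed lines at 3.93% and 3.82% for all genes. NF-kB and inflammatory genes lead at a median of 0.89 with calls in 1 direction only, and of the lists drawn SOX genes are last at -0.32.

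In the growth factor list the genes that passed the plain fit were all ligands. PDGFA and PDGFB, the chains of platelet-derived growth factor, were both higher. PDGFA was at 11.5, 19.6 and 15.2 CPM in Bottom10 positive libraries, against 3.09, 5.66 and 4.77 CPM in Top10 positive libraries (1.77 ± 0.36, edgeR adjusted p = 0.0112). PDGFB had 12.3, 13.6 and 8.35 CPM in Bottom10 positive cells, against 1.59, 2.31 and 1.38 CPM in Top10 positive cells (2.70 ± 0.52, edgeR adjusted p = 0.00876). HBEGF, a ligand of the EGF receptor, had 9.78, 18 and 17.9 CPM in Bottom10 positive cells and 5.59, 5.61 and 6.34 CPM in Top10 positive cells (1.38 ± 0.33, edgeR adjusted p = 0.04). The groups did not overlap for any of the 3. These were the 3 calls, all higher, among 35 ligands and receptors of the ERBB, PDGF, FGF and VEGF families, and the list median was 0.30. The block called 9 higher and 4 lower of 31. The higher ones were ligands or secreted modulators (NRG1, AREG, FGF2, VEGFC and ESM1 besides the 3) and the coreceptor NRP1. The lower ones were the receptors FLT1 and FGFR3 and the ligands TGFA and PDGFD. FLT1 was at 14, 10.9 and 4.72 CPM in Bottom10 positive and 39.7, 44.7 and 30.4 CPM in Top10 positive libraries (block -1.99). LIFR, the receptor chain for the cytokine LIF, fell in the plain fit, at 20.4, 12.5 and 11.4 CPM in Bottom10 positive and 58.6, 37.4 and 35.2 CPM in Top10 positive cells (-1.57 ± 0.34, edgeR adjusted p = 0.0234). Of 20 MAPK output genes 0 were called in the plain fit and 3 in each direction with the block, among them the feedback inhibitors SPRY4 (-1.71) and SPRY2 (-0.67), which fell, and the receptor EPHA2, which rose (1.31).

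Receptors for lysophospholipids, soluble lipids that direct migration, changed in both directions. S1PR1, a receptor for sphingosine 1-phosphate, was at 5.87, 15.1 and 11.7 CPM in Bottom10 positive libraries, against 0.645, 1.10 and 1.23 CPM in Top10 positive libraries (3.45 ± 0.53, edgeR adjusted p = 0.000972). It kept the call in all 6 fits that left out 1 library. LPAR4, a lysophosphatidic acid receptor, had 2.63, 1.52 and 2.33 CPM in Bottom10 positive cells and 0.473, 0.251 and 0.295 CPM in Top10 positive cells (2.63 ± 0.55, edgeR adjusted p = 0.017). These were 2 calls, both higher, among 22 genes with a median of 0.10. With the block the LPA-producing enzyme ENPP2 (autotaxin) fell, at 6.54, 5.21 and 3.22 CPM in Bottom10 positive and 28.2, 24.1 and 8.80 CPM in Top10 positive libraries (-1.96, edgeR adjusted p = 0.000343), as did S1PR2, PPAP2B and LPAR6, while LPAR5 rose. IL18R1, a receptor for interleukin 18, rose in the plain fit, with 2.85, 13.4 and 4.17 CPM in Bottom10 positive and 0.172, 1.70 and 0.246 CPM in Top10 positive cells (3.27 ± 0.75, edgeR adjusted p = 0.0308), with replicate 2 highest on both sides.

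Several of the changed genes encode surface proteins best known from neurons. PTPRD, a receptor tyrosine phosphatase of synapse formation, was at 16.8, 18.4 and 5.13 CPM in Bottom10 positive libraries, against 0.945, 1.00 and 0.787 CPM in Top10 positive libraries (3.88 ± 0.47, edgeR adjusted p = 5.62e-05). Its antisense neighbour PTPRD-AS1 was also called, and since the strand setting of the counting is not given in the sources used here, reads of the pair cannot be told apart. ASTN1, which guides migrating neurons along glia, had 10.1, 13.4 and 4.10 CPM in Bottom10 positive cells and 0.645, 0.802 and 0.443 CPM in Top10 positive cells (3.86 ± 0.51, edgeR adjusted p = 0.000174). Both genes were at or below about 1 CPM in every uncrossed library and lowest in replicate 3 among the crossed ones. ALCAM, an immunoglobulin-type adhesion molecule of melanoma, had 54.8, 73.9 and 55.1 CPM in Bottom10 positive cells, against 34.2, 31.4 and 34.5 CPM in Top10 positive cells (0.88 ± 0.21, edgeR adjusted p = 0.0419). ASTN1 and ALCAM were the 2 calls, both higher, of 36 immunoglobulin-type and neural adhesion genes, and PTPRD was the 1 call of 17 receptor phosphatases. With the block the adhesion list moved both ways, 6 higher and 7 lower of 35: CNTN5 (2.34), L1CAM (1.31), NFASC and BCAM were the other higher members, and NRCAM (-1.40), CADM3 (-1.40), NLGN1 (-1.29), CNTN3, CNTN1, CHL1 and CADM4 were lower. Of 16 receptor phosphatases 3 rose, with PTPRR (1.55) and PTPRM (1.19), and PTPRZ1 (-1.24) and PTPRU fell.

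SORCS1, a sorting receptor for neuronal membrane proteins, fell, with 4.64, 6.32 and 1.44 CPM in Bottom10 positive libraries and 60.7, 54.3 and 36.6 CPM in Top10 positive libraries (-3.60 ± 0.65, edgeR adjusted p = 0.00466). PCDH7, a protocadherin, fell too, with 1.73, 1.01 and 3.49 CPM in Bottom10 positive and 14.6, 8.52 and 19.5 CPM in Top10 positive libraries (-2.79 ± 0.49, edgeR adjusted p = 0.00379). Both kept their calls in all 6 fits that left out 1 library, and SORCS1 was the 1 call of 4 sorting receptors of its family, of which SORL1 rose with the block (1.53). PCDH11X, a protocadherin of the X chromosome with a near-identical Y-linked copy, was called higher at under 2 CPM in all 6 libraries, so the cadherin list held 1 higher and 1 lower call among 35, and 3 higher and 2 lower of 31 with the block. Of the guidance molecules EPHB3, a receptor for ephrin-B ligands, and SEMA6A, a membrane-bound semaphorin, were the 2 calls, both lower, among 58 in the plain fit. The block called 7 higher and 6 lower of 55. The repulsive ligands SEMA3F (1.21) and SEMA3A (1.04) were among the higher and SEMA3G (-1.83) and the receptor EPHA3 (-1.40) among the lower members. EPHB3 was at 11.3, 8.39 and 9.99 CPM in Bottom10 positive cells, against 21.8, 20.6 and 21 CPM in Top10 positive cells (-1.10 ± 0.25, edgeR adjusted p = 0.0308). SEMA6A had 2.18, 1.92 and 2.26 CPM in Bottom10 positive and 5.33, 4.76 and 6.10 CPM in Top10 positive libraries (-1.35 ± 0.32, edgeR adjusted p = 0.0423). The 11 Schwann and neural markers summed to 460 to 948 CPM in Bottom10 positive and 563 to 727 CPM in Top10 positive libraries, mostly TUBB3 and PMP22.

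The TGF-beta and BMP list and the WNT list each gave a single call in the plain fit. NOG, the BMP antagonist noggin, was higher at 1.34, 2.12 and 0.889 CPM in Bottom10 positive and 0.387, 0.251 and 0.197 CPM in Top10 positive libraries (2.36 ± 0.57, edgeR adjusted p = 0.0417), 1 of 38 TGF-beta and BMP genes (2 higher and 2 lower of 37 with the block). LRP3, a member of the low-density lipoprotein receptor family, was lower at 2.74, 2.43 and 3.35 CPM in Bottom10 positive and 14, 12.5 and 17.3 CPM in Top10 positive libraries (-2.36 ± 0.37, edgeR adjusted p = 0.00127), 1 of 37 genes in the WNT list, although LRP3 itself is not an established WNT coreceptor. That list had a median of -0.01, and with the block 2 of 31 rose (DKK1 and FZD2) and 6 fell. Of 13 IGF genes 0 were called in the plain fit. With the block the binding proteins IGFBP7, IGFBP6 and IGFBP4 rose, IGFBP7 at 89.9, 105 and 98.9 CPM in Bottom10 positive and 30.4, 46.7 and 17.4 CPM in Top10 positive cells (block 1.77, edgeR adjusted p = 0.00517). None of these binding proteins passed in the block fit without replicate 2 (edgeR adjusted p = 0.0918 for IGFBP7, 0.171 for IGFBP6 and 0.374 for IGFBP4).

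Other genes with large differences had no common role. TMPRSS15, known as enteropeptidase, the gut protease that activates trypsinogen, was at 65.8, 86.5 and 32.1 CPM in Bottom10 positive libraries, against 3.35, 4.31 and 1.97 CPM in Top10 positive libraries (4.26 ± 0.49, edgeR adjusted p = 3.39e-05). SLC14A1, a urea transporter, had 30.1, 39.8 and 19.9 CPM in Bottom10 positive cells and 2.66, 3.81 and 2.56 CPM in Top10 positive cells (3.31 ± 0.44, edgeR adjusted p = 0.00017). SH3GL2, an endophilin of synaptic vesicle uptake, had 9.28, 11.6 and 5.06 CPM in Bottom10 positive cells, against 0.902, 1.00 and 0.836 CPM in Top10 positive cells (3.24 ± 0.45, edgeR adjusted p = 0.000243). These 3 kept their calls in all 6 fits that left out 1 library, and their groups did not overlap. TMPRSS15 was the 1 call of 32 surface peptidases and serine proteases, and the block called 5 higher and 1 lower of 27. SCARA5, a ferritin receptor, was at 6.21, 2.48 and 1.92 CPM in Bottom10 positive and 25.3, 14.1 and 21.2 CPM in Top10 positive libraries (-2.51 ± 0.50, edgeR adjusted p = 0.0107). VAT1L, PALD1 and the zinc finger gene ZNF208 also fell, with log2 fold changes of -2.86, -1.90 and -2.15. Chosen after their values were seen, since they had the smallest p, FOXP1 and ZFPM2 both rose: FOXP1, a forkhead factor, was at 16.6, 24.1 and 12 CPM in Bottom10 positive and 2.45, 2.71 and 1.52 CPM in Top10 positive cells (2.98 ± 0.33, edgeR adjusted p = 2.98e-05), and ZFPM2, a GATA cofactor, at 28.1, 23.9 and 17.6 CPM in Bottom10 positive and 5.46, 5.56 and 4.97 CPM in Top10 positive cells (2.12 ± 0.23, edgeR adjusted p = 2.98e-05).

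Genes normally restricted to testis were among the calls on the X chromosome. VCX2 was at 19.9, 20.3 and 35.4 CPM in Bottom10 positive libraries, against 1.93, 2.66 and 2.41 CPM in Top10 positive libraries (3.43 ± 0.60, edgeR adjusted p = 0.00355), and VCX had 8.16, 9.35 and 17.4 CPM in Bottom10 positive and 1.12, 1.40 and 0.984 CPM in Top10 positive cells (3.31 ± 0.60, edgeR adjusted p = 0.00505). VCX3A and VCX3B, the other called members of the family, rose with them, but the 4 copies are nearly identical, so reads may be shared and the single values are uncertain. Parental positive cells held 27.5, 26.8 and 24.3 CPM of VCX2, within the range of the crossed libraries. Of 23 tested cancer-testis genes GAGE2A and SPANXB1 were called higher and CTAG2 lower, each of them with near-identical copies and at under 3 CPM in all 6 libraries, with a list median of 0.36. The block called 6 higher and 1 lower of 22, adding PAGE1, MAGEB2, MAGEA1 and GAGE1 to the higher ones.

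Several lists that could accompany growth or stress held no call in the plain fit: G2/M genes (54 tested, median 0.12), S-phase genes (43, median 0.24), nuclear envelope genes (18, median 0.02), heterochromatin genes (26, median 0.02), unfolded protein genes (26, median 0.07), hypoxia and glycolysis genes (29, median 0.22), interferon response genes (33, median 0.12), cohesin, condensin and CTCF genes (21, median -0.07), voltage-gated channel and glutamate receptor genes (54, median 0.20), antigen presentation genes (23, median -0.11) and cholesterol genes (25, median 0.01). With the block G2/M, S-phase, nuclear envelope and heterochromatin genes still had 0 calls. It called 0 higher and 2 lower of 26 unfolded protein genes, 1 and 1 of 30 interferon response genes, 0 and 1 of 21 cohesin, condensin and CTCF genes, 1 and 3 of 42 channel and receptor genes, 0 and 1 of 23 antigen presentation genes and 0 and 2 of 24 cholesterol genes. Over all genes the block called 3.93% higher and 3.82% lower, so the lists with a single call in a direction were near that share. The S-phase list was higher in 40, 42 and 27 of 43 genes in the replicate 1, 2 and 3 pairs, with medians of 0.19, 0.33 and 0.14. The fit recovered 17 of 100 simulated 2-fold changes, so differences of this size in single genes would mostly go uncalled. In the hypoxia list the block called the peptide hormone ADM (1.29) and SLC2A1 higher, whereas PFKFB3, PFKFB4 and SLC2A3 were lower. Among p53 targets it called 4 of 24 higher (GADD45A, PLK3, PLK2 and BBC3) and ZMAT3 lower. Of 10 fibroblast markers COL1A2, COL3A1, THY1 and DPT were below 1 CPM in all 6 libraries and none was called in either fit. Of 11 endothelial markers PECAM1, CDH5, TEK, EMCN and CLDN5 were below 1 CPM in all 6, but with the block 2 rose and FLT1 fell. TIE1, an endothelial receptor kinase, was at 5.81, 13.4 and 4.52 CPM in Bottom10 positive and 1.46, 2.96 and 0.984 CPM in Top10 positive libraries (block log2 fold change 2.12, edgeR adjusted p = 0.00022), and kept the call in all 3 block fits that left out a replicate number. ROBO4, a guidance receptor of vessels, was at 32.1, 35.7 and 36.1 CPM in Bottom10 positive and 13.5, 13.4 and 24.6 CPM in Top10 positive libraries (block log2 fold change 1.10, edgeR adjusted p = 0.00967; 0.253 without replicate 2). Both groups stood apart for TIE1 and ROBO4. The fibroblast markers summed to 23.3 to 38 CPM in Bottom10 positive and 23.7 to 34.6 CPM in Top10 positive libraries, and the endothelial markers to 51.9 to 67 CPM in Bottom10 positive and 67.1 to 72.8 CPM in Top10 positive libraries.

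Genes of chromosome 13 were lower as a whole in crossed cells. Of 275 tested genes assigned to it by symbol, 226 (82.2%) had a log2 fold change below 0, where 46.1% of all tested genes did. Their median was -0.41, a ratio of 0.753, with quartiles of -0.66 and -0.13. The median of each other chromosome lay between -0.024 (chromosome 5) and 0.129 (chromosome 19). In the replicate 1, 2 and 3 pairs the chromosome 13 median was -0.373, -0.403 and -0.444. Among the 145 called genes 13 were on it, 10 lower and 3 higher, where 0.943% of all tested genes were called. The block called 7 higher and 74 lower there, beside 3.93% higher and 3.82% lower of all genes. The 3 higher genes were CCNA1, THSD1 and TRPC4.

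Each library's chromosome 13 level, as the median deviation of its genes from their mean over the 30 libraries less that of all genes, was -0.235, -0.273 and -0.342 on the log2 scale in Bottom10 positive replicates 1, 2 and 3, against 0.079, 0.135 and 0.155 in the Top10 positive libraries. The difference of means was -0.406 (two-sided exact permutation p = 0.1, the smallest that 3 against 3 allows). Parental positive libraries were at -0.019, 0.054 and 0.142, above all crossed ones. In the negative sort Bottom10 libraries were at -0.133 ± 0.043 and Top10 libraries at 0.075 ± 0.033 (SD, n = 3 each). Cells sorted as positive and then taken across for 5 rounds were at 0.018 ± 0.035 and Top5 positive cells at 0.049 ± 0.082 (SD, n = 3 each). The number of gene copies was not measured. RB1, the retinoblastoma cell cycle inhibitor, was at 69.7, 55.6 and 57.9 CPM in Bottom10 positive and 119, 94 and 117 CPM in Top10 positive libraries (-0.85 ± 0.17, edgeR adjusted p = 0.00984). DIS3, an exosome ribonuclease, was at 88.9, 85.1 and 95.4 CPM in Bottom10 positive and 135, 139.8 and 159.6 CPM in Top10 positive libraries (-0.69 ± 0.14, edgeR adjusted p = 0.0101). Both, and the GTPase-activating protein TBC1D4 (-1.25), were picked from the called genes of this chromosome after their values were seen. Other genes described above as lower with the block are also on chromosome 13. Among them are the lineage gene EDNRB, the receptor gene FLT1, LPAR6 (which lies inside RB1), COL4A1 and SPRY2. The lower call of the cohesin list, PDS5B, and the unfolded protein gene DNAJC3 lie there as well, as does POSTN, described above as higher. The part of the chromosome-wide shift in these single results was not tested.

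**Figure D4:**
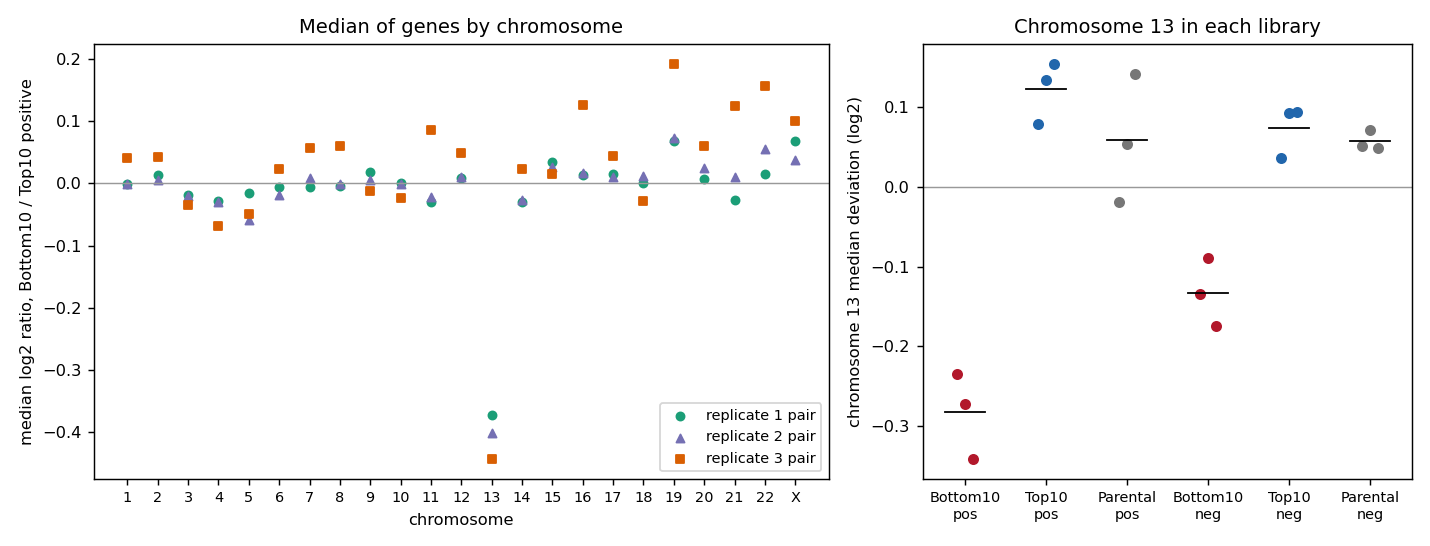
Left, median log2 ratio of Bottom10 over Top10 positive cells for the genes of each chromosome, 1 symbol per replicate pair; chromosome 13 lies at -0.373 to -0.444 and all other values between -0.069 and 0.193. Right, chromosome 13 median deviation (log2) in each library of 6 groups, with the group mean as a bar; the 3 Bottom10 positive libraries are the lowest, followed by the 3 Bottom10 negative ones.

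The same contrast in the negative sort, which shares no library with the positive one but carries the same replicate numbers, called 205 genes (1.33%; 91 to 157 without any 1 of its libraries), and 1355 (9.29%, 4.7% higher and 4.59% lower) with the block. Of the 145 genes called in the positive sort, 77 were called there too, 53.1% of the positive and 37.6% of the negative list, all 77 in the same direction. In all, 144 of the 145 had a log2 fold change of the same sign, the exception being the retinoic acid receptor gene RARB, with a median in the negative sort of 1.84 for the genes higher and -1.32 for the genes lower in the positive sort. No gene was shown to differ between the sorts. The interaction had 0 calls of 15381 with edgeR (441 at an unadjusted p under 0.05, where chance gives 769), 0 with DESeq2 and 0 with the replicate block (1905 unadjusted, where chance gives 729). VCX2, for example, had a log2 fold change of 3.43 ± 0.60 in the positive and 1.08 ± 0.55 in the negative sort, a difference of 2.35 ± 0.79 (edgeR adjusted p = 0.998). FREM1 was at 4.99 ± 0.769 CPM in Bottom10 negative and 11.1 ± 5.34 CPM in Top10 negative cells, -1.14 on the log2 scale (edgeR adjusted p = 0.626), and SOX11 at 80.6 ± 6.81 CPM in Bottom10 negative and 96.7 ± 12.2 CPM in Top10 negative cells (-0.26, edgeR adjusted p = 0.981). PXDN had 47.6 ± 2.21 CPM in Bottom10 negative and 2.78 ± 1.17 CPM in Top10 negative cells (4.09, beside 2.00 in the positive sort), and its interaction of -2.10 ± 0.51 did not pass (edgeR adjusted p = 0.998). List medians in the negative sort were 0.25 for NF-kB and inflammatory genes, 0.67 for dedifferentiated genes and 0.78 for YAP and TEAD targets, beside 0.89, 0.86 and 0.68 in the positive sort, and these differences were not tested.

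**Figure D5:**
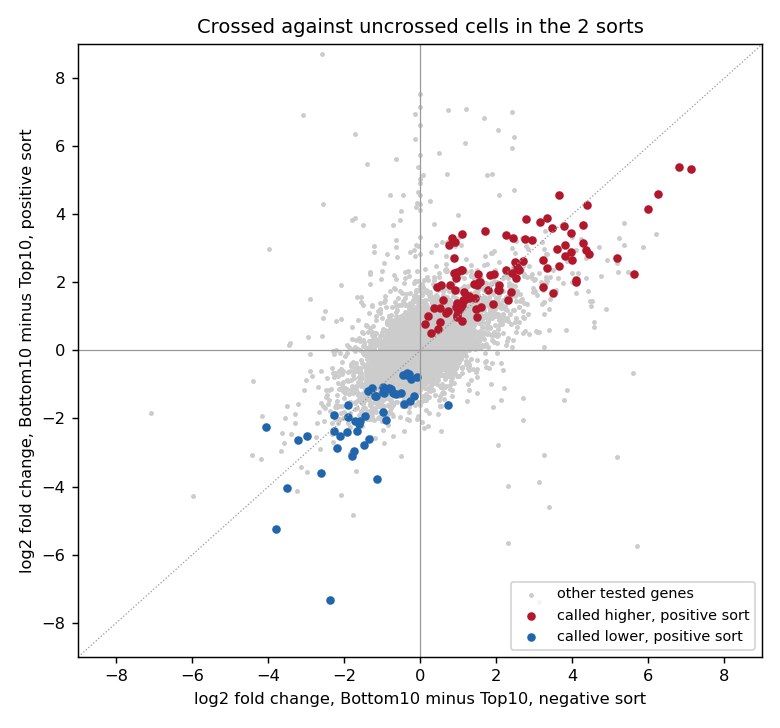
Log2 fold change of Bottom10 minus Top10 cells for each tested gene in the positive sort (vertical) and the negative sort (horizontal), with the 97 genes called higher and the 48 called lower in the positive sort coloured and the dotted line at equality. All coloured points but 1 share their sign in both sorts, and 1 uncoloured gene lies outside the axes.

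At 5 rounds, positive cells sorted first and then taken across were compared with Top5 positive cells, a contrast that shares no library with the 10-round one but differs from it in the order of sorting and migration. It called 315 genes (2.05%, 0.832% higher and 1.22% lower). That count was 97 without replicate 1 of the crossed cells and 1287 without Top5 positive replicate 2. Top5 positive replicates 1 and 3 were among the 6 libraries that stood apart. Without those 6, 1 Top5 positive library remains, so no count is given for that fit. Of the 145 genes, 62 were among the 315, all in the same direction, 42.8% of the 10-round and 19.7% of the 5-round list. Across all 3 contrasts 43 genes were called, 33 higher and 10 lower, including PGM5, S1PR1, IL1B, LAMA1, PXDN, PKP2, ASTN1, EYA1, SORCS1, LRP3 and EPHB3. Neither of the other contrasts called 49 of the 145 genes, 31 higher and 18 lower, which does not show that these differ between the contrasts. TMPRSS15 had a log2 fold change of 4.26 at 10 rounds and 1.13 at 5 (edgeR adjusted p = 0.179), and PTPRD 3.88 at 10 rounds and 0.48 at 5 (edgeR adjusted p = 0.552). FREM1 was at -3.77 at 10 rounds and -4.03 at 5, and SOX11 at -1.48 at 10 rounds and -3.15 at 5 (edgeR adjusted p = 2.9e-06).

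Set beside Parental positive cells, the named genes fell into different positions. These values share libraries with the main contrast and are given side by side only. Reads outside annotated genes made up 15.74, 14.32 and 16.04% in Parental positive replicates 1, 2 and 3. In the 6 migrated libraries they made up 11.38 to 13.59%, without overlap. The part of this difference in the values below was not tested. For TMPRSS15 the log2 fold change against parental cells was 2.98 in Bottom10 positive cells (edgeR adjusted p = 0.0037) and -1.28 in Top10 positive cells (edgeR adjusted p = 0.316). The Top10 positive libraries (3.35, 4.31 and 1.97 CPM) all lay below the Parental positive ones (7.44, 7.47 and 8.47 CPM). PTPRD likewise was 3.44 in Bottom10 positive cells (edgeR adjusted p = 0.000716) and -0.44 in Top10 positive cells (edgeR adjusted p = 0.842). For other genes the difference that passed was that of the uncrossed cells. S1PR1 was 0.56 in Bottom10 positive cells (edgeR adjusted p = 0.751) and -2.90 in Top10 positive cells (edgeR adjusted p = 0.00765), EYA1 -0.39 in Bottom10 positive (edgeR adjusted p = 0.732) and 2.12 in Top10 positive cells (edgeR adjusted p = 0.000411), and SH3GL2 0.52 in Bottom10 positive (edgeR adjusted p = 0.734) and -2.72 in Top10 positive cells (edgeR adjusted p = 0.00256). LAMA1 (0.61 in Bottom10 positive, -1.81 in Top10 positive) and IL1B (2.31 in Bottom10 positive, -1.38 in Top10 positive) lay between, and neither of their 2 differences from parental cells passed (edgeR adjusted p of 0.118 or more). Across all genes Bottom10 positive cells differed from Parental positive cells in 38 genes (0.247%, 20 higher, 0.13%, and 18 lower, 0.117%) and Top10 positive cells in 59 (0.384%, 9 higher, 0.0585%, and 50 lower, 0.325%). Leaving out any 1 library left 11 to 18 and 20 to 101 calls in these contrasts.

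Many calls of the plain fit were lost when 1 library was left out. Such a fit has fewer libraries, so a lost call need not mean that the library left out carried the difference. Of the genes named above ASTN1, COL13A1, EYA1, FOXP1, FREM1, LRP3, PCDH7, PGM5, PTPRD, PXDN, S1PR1, SH3GL2, SLC14A1, SORCS1, TBC1D4, TMPRSS15, TRPC4, VCX, VCX2, VCX3A, ZFPM2 and ZNF208 kept their calls in all 6 fits that left out 1 library. Those of ADAMTS9, ALCAM, CCNA1, CTAG2, EPHB3, SDC3 and SEMA6A were lost in all 6. Without Bottom10 positive replicate 1, DLC1, LPAR4, NOG, PALD1 and VAT1L no longer passed. Without Bottom10 positive replicate 2, DIS3, SOX11, IL18R1, IL1B, LAMA1, LIFR, PCDH11X, PDGFA, SCARA5, PKP2, RB1, VCX3B, DLC1, GADD45B, HBEGF, LIMS2, NOG, PALD1, RARB, SPANXB1, TNFRSF12A and VAT1L no longer passed. Without Bottom10 positive replicate 3, CCL2, LIFR, SCARA5, RB1, VCX3B, GADD45B, HBEGF, LIMS2, LPAR4, PALD1, RARB, SPANXB1, TNFRSF12A and VAT1L no longer passed. Without Top10 positive replicate 1, GAGE2A, PDGFB, PTPRD-AS1, SOX11, THSD1, CCL2, IL18R1, IL1B, LAMA1, LIFR, PDGFA, SCARA5, PKP2, RB1, VCX3B, DLC1, GADD45B, HBEGF, LIMS2, LPAR4, NOG, RARB, SPANXB1, TNFRSF12A and VAT1L no longer passed. Without Top10 positive replicate 2, THSD1, CCL2, PCDH11X, PKP2, DLC1, GADD45B, HBEGF, LIMS2, LPAR4, NOG, PALD1, RARB, SPANXB1 and TNFRSF12A no longer passed. Without Top10 positive replicate 3, KRT81, DIS3, GAGE2A, PDGFB, PTPRD-AS1, IL18R1, IL1B, LAMA1, PCDH11X, PDGFA, PKP2, RB1, VCX3B, DLC1, GADD45B, HBEGF, LIMS2, LPAR4, NOG, PALD1, RARB, SPANXB1, TNFRSF12A and VAT1L no longer passed. The highest edgeR adjusted p that any such fit gave ran from 0.0512 for KRT81 to 0.297 for IL18R1, and 22 of the 145 called genes lost the call in each of the 6 fits.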

How the data were processed

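The series holds 30 polyadenylated RNA libraries of A375 melanoma cells in 10 groups of 3, of which 6 form the main contrast, grouped by their titles. Raw counts per gene were deposited by the authors; per the submitters' processing notes reads were processed with STAR, HTSeq and DESeq against hg19, while no source used here gives versions, gene annotation or strand setting. Deposited summary lines that name no gene (22.08 to 23.56% of reads in the 6 libraries) were left out.

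Of 26364 listed genes, 15381 passed edgeR's expression filter (minimum count 10, minimum total 15). edgeR 4.0.16 in R 4.3.3 fitted all 10 groups at once with TMM scaling, its quasi-likelihood test and Benjamini-Hochberg adjustment over all tested genes, with a threshold of 0.05. CPM are TMM-scaled. DESeq2 1.42.0 and other filters, scalings and sample sets were alternatives, as was leaving out each library. The replicate number was a block in a further fit of the 4 ten-round groups, because same-numbered libraries of both positive groups correlated above 0.1 in each pair after group means were removed. Of the other pairs of these 4 groups, Bottom10 positive and Top10 negative replicate 1 did not (-0.122). Between the 2 positive groups, Bottom10 replicate 1 and Top10 replicate 2, which have unlike numbers, were also above 0.1 (0.156). Their other pairs with unlike numbers ran from -0.001 to -0.539. Removing group means pushes such pairs below 0 when same-numbered pairs lie above it, so these values are no further sign of pairing. The pairing by number thus comes from the data, and the labels name no shared culture or day. On simulated data for the main contrast over 15381 genes, the test called 17 of 100 2-fold and 71 of 100 4-fold changes, none in the wrong direction, and 2 of its 90 calls were false. The simulated libraries varied independently, whereas same-numbered real libraries deviated together. The share of false calls in the simulation is therefore not an error rate for the real calls.

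Named genes were ITGB4, the 12 highest and the 12 lowest log2 fold changes among called genes with a mean of at least 5 CPM in either group and no overlap, up to 4 called members of each gene list by p, and, for lists with none, up to 3 called with the block. Other genes named are members of a list called with the block, members of neighbouring or near-identical copies, or are said to have been chosen later. The comparison, lists and named rule were chosen with earlier results of these data known. Chromosomes were assigned by symbol from RefSeq (GRCh38.p14), which also gave the promoter sequences; no coordinates were taken across builds. Depth limits precision, and p-values cover only the spread between libraries. The series text gives 5 rounds where titles give 4, 5 or 10, and titles were followed. Cells of a single-cell clone are not analysed here. A few results that involve items withheld from this text are not reported here.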

Additional observations from a re-analysis of the deposited data

How the results depend on the processing

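The count of 145 genes depended on the fit. It was 280 with DESeq2, 31 when only the compared groups were fitted, 1130 with the replicate block in the 4 ten-round groups, 584 with the block in the 2 compared groups alone and 1630 with DESeq2 and that block in the 4 groups. With the block and without replicate 1, 2 or 3 it was 643, 92 or 840, and without any 1 library of the plain fit 53 to 113. RLE scaling (141), no filter (109), the block over all 10 groups (200) and leaving out the 6 libraries that stood apart (129, an alternative chosen after seeing the data) moved it by less than 1.5 times. The negative sort had 205 calls, 383 with DESeq2, 1355 with the block, 515, 116 and 1932 with the block without replicate 1, 2 and 3, and 91 to 157 without any 1 library. The interaction had 0 calls in every alternative run except 1 call without Bottom10 positive replicate 1 (0 to 1). Bottom10 positive minus Parental positive had 38 calls, 113 with DESeq2, 0 with only the compared groups and 11 to 18 without any 1 library. Top10 positive minus Parental positive had 59, 210 with DESeq2, 13 with only the compared groups, 98 with the block, 108 without the 6 libraries and 20 to 101 without any 1 library. The 5-round contrast had 315, 781 with DESeq2, 1 with only the compared groups, 66 without the 6 libraries and 97 to 1287 without any 1 library. The cause of these shifts was not tested. None of the 93 genes named by rule changed direction in any alternative run. The test missed most simulated 2-fold changes, so an uncalled gene may still differ by that much.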
